A study of Mus musculus with 15 samples.

Results

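The transcripts of the 7 enzymes of the pentose phosphate pathway were followed in mouse embryonic stem cells (ESCs) treated with an inhibitor of mitochondrial ATP synthesis or of glycolysis. The 7 genes, G6pdx, Pgls, Pgd, Rpia, Rpe, Tkt and Taldo1, were chosen by name among the 32152 genes of the deposited table, and all 7 were found and tested. Total RNA was extracted and sequenced, and how mRNA was selected is not given in the sources used here. The cells were of the C57BL/6 strain and were kept, in every group, in a medium of serum and leukemia inhibitory factor; feeder cells are not mentioned in the labels. The 5 groups of 3 replicates were oligomycin at 1 nM, oligomycin at 10 nM, 2-deoxy-D-glucose (2-DG) at 5 mM, 2-DG at 10 mM, and mock-treated cells of the same strain. Each inhibitor was given for 48 hours; the time for the mock cells is not in the labels. Oligomycin blocks the mitochondrial ATP synthase, and 2-DG is a glucose analogue that is phosphorylated by hexokinase and hinders glycolysis. The labels do not say whether replicates were separate cultures, so p-values measure the spread between these samples, which may be technical.

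The pentose phosphate pathway branches from glycolysis at glucose 6-phosphate. Its oxidative branch makes NADPH, which is used in lipid synthesis and in the reduction of glutathione and thioredoxin, and ends in ribulose 5-phosphate. Its non-oxidative branch makes ribose 5-phosphate for nucleotides and, in reversible steps, connects pentose phosphates with intermediates of glycolysis. Embryonic stem cells divide quickly and so need both products.

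Sequence upstream of the RefSeq start is shown for the 5 enzymes that passed the test in at least 1 comparison with mock, because these genes did not move together. The sequences lie within the 250 bases before that start on GRCm38.p6, on the strand of the gene. The GENCODE annotation begins some genes earlier than RefSeq does: all 250 of these bases of G6pdx and 129 of those of Tkt lie in GENCODE exons, and both printed stretches lie inside the gene as GENCODE draws it, so they are upstream only of the RefSeq start. For Pgls, Pgd and Rpe the longest run outside annotated exons is given, and for G6pdx and Tkt only a short stretch around a match. Capitals mark matches to the antioxidant response element core TGACNNNGC in G6pdx and to the GC box GGGCGG in the others, each read on both strands.
G6pdx, chrX:74428919-74428947, minus strand: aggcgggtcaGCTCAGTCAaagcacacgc
Pgls, chr8:71591934-71592175, plus strand: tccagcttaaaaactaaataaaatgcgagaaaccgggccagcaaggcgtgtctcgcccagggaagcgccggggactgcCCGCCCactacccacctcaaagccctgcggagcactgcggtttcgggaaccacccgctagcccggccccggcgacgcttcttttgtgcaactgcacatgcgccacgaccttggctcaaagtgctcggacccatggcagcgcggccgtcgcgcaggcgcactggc
Pgd, chr4:149166772-149166955, minus strand: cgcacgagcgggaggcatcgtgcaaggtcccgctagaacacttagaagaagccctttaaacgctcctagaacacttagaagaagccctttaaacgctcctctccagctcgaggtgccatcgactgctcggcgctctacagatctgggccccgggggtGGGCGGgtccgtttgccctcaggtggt
Rpe, chr1:66700581-66700830, plus strand: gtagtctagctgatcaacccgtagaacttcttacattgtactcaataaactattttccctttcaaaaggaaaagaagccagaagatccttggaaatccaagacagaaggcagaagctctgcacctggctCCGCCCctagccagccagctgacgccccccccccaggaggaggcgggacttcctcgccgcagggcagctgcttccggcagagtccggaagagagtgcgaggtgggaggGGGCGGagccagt
Tkt, chr14:30549102-30549130, plus strand: cgccCCGCCCcacctCCGCCCCGCCCccc

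All 7 windows of this kind held a GC box, the letters of an Sp1-type site, against 32.9% of the 27025 mouse promoters searched in the same way. The promoter shares given here cover genes whether or not they were expressed in these samples. A background of expressed genes was not computed. Tkt held 3 matches, of which a neighbouring pair shares a base. The TGACNNNGC letters, the core bound by NRF2 with small MAF proteins, were found in G6pdx alone among the 7, against 10.1% of all promoters. CCAAT, tallied over the same windows, was found in Pgd and Taldo1 and in 34.5% of all promoters; the matches of Pgd lie outside the stretch printed. CACGTG, an E-box, was in none of the 7 and in 6.05% of all promoters, and TGATGNAA, the core of the amino acid response element, was in none of the 7 and in 3.53%. A match is a description of these letters and not a binding site.

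Depth worked out from the values was 17.4 to 19.2 M reads (M for mega) per sample, and between 12116 and 12499 genes reached 1 FPKM (fragments per kilobase, scaled to the reads of the sample) in a sample. The 10 stem cell markers were present in every group, with a summed level of 1036 to 1132 FPKM with 1 nM oligomycin, 411 to 530.5 FPKM with 10 nM oligomycin, 1505 to 1600 FPKM with 5 mM 2-DG, 1392 to 1432 FPKM with 10 mM 2-DG and 1759 to 1892 FPKM in mock cells. In the same order, 10 fibroblast markers summed to 4494 to 4591, 6386 to 6457, 1756 to 1887 and 2048 to 2196 FPKM in the treated groups and 1921 to 1942 FPKM in mock cells. The 10 macrophage markers summed to 150.3 to 198 and 186 to 195 FPKM with the lower and higher dose of oligomycin, 66.3 to 67.9 and 59.5 to 61.9 FPKM with the lower and higher dose of 2-DG, and 147 to 163 FPKM in mock cells. No marker was at 0 in any group. These are bulk samples, in which fewer cells of a type and less RNA per cell cannot be told apart.

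In mock cells the levels per length ran from Taldo1 at 83.8 ± 5.35 FPKM (SD, n = 3 here and below) through Tkt at 60.3 ± 3.62, Pgd at 39.3 ± 1.37, Rpe at 30.5 ± 1.73, G6pdx at 29.2 ± 0.698 and Pgls at 11.9 ± 1.73 to Rpia at 1.07 ± 0.0711 FPKM. Rpe and G6pdx were neighbours whose samples overlapped, and every other pair of neighbours was apart. The deposited values use the length of all annotated exons of a gene, which changes this order. Per length of the principal transcript, mock reads per kilobase and mega reads were 148 for Taldo1, 138 for Tkt, 114 for Pgd, 50.2 for Pgls, 35.3 for Rpe, 33.9 for G6pdx and 3.13 for Rpia, so that Pgls stood above Rpe and G6pdx. With 1 nM oligomycin Rpe and Pgd were the neighbours that overlapped, and with 10 nM oligomycin Tkt and Pgd overlapped, as did Pgls, Rpe and G6pdx. The ratio of a gene's means between groups does not depend on the length used, whereas its log2 change of FPKM + 1 does so slightly.

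**Figure D1:**
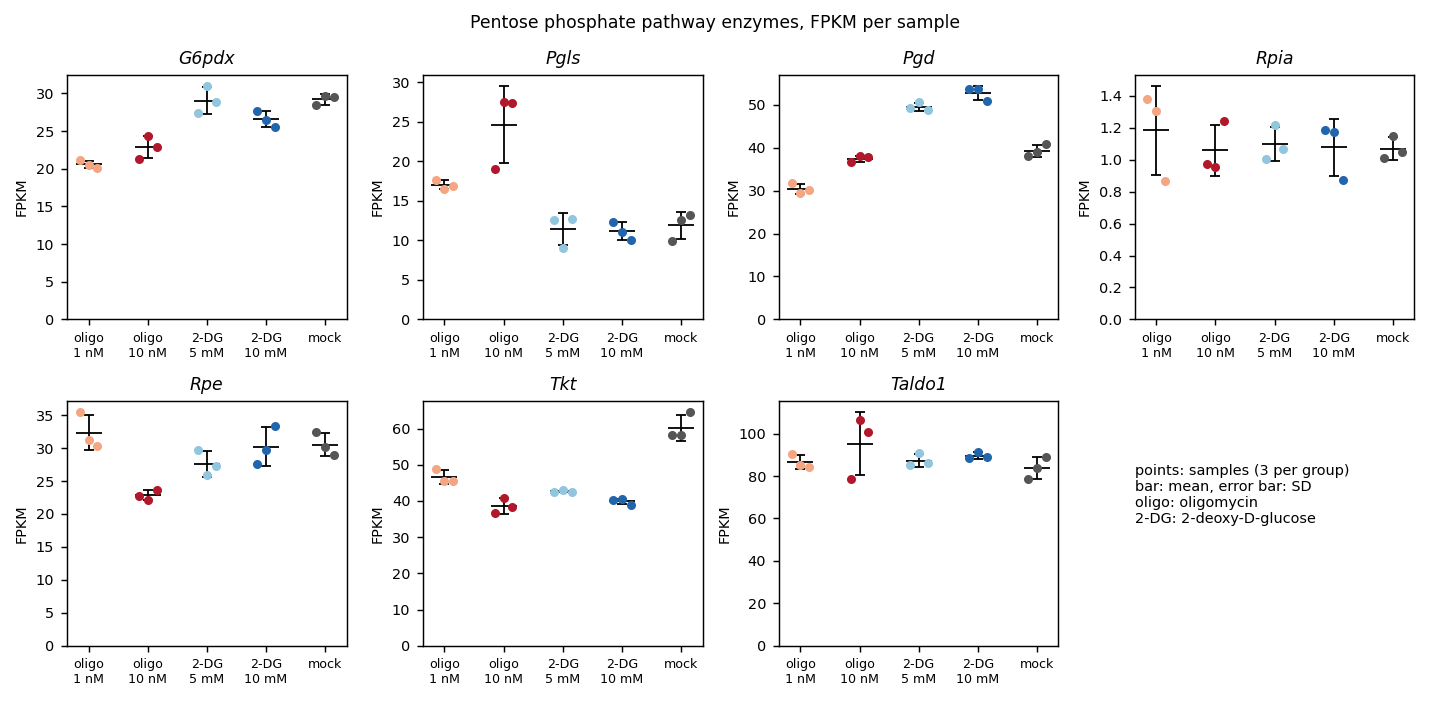
FPKM of each enzyme in each of the 15 samples, with 1 panel per gene and axes that start at 0. Points are samples, the bar is the group mean and the error bar the SD over 3 replicates. Tkt is lower in all 12 treated samples than in the 3 mock samples, and Pgls is higher in the 6 oligomycin samples.

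Tkt fell in all 4 treatments. G6pdx fell and Pgls rose at both doses of oligomycin, while neither passed the test with 2-DG. Pgd rose at both doses of 2-DG and fell with 1 nM oligomycin. Rpe fell with 10 nM oligomycin, and neither Rpia nor Taldo1 passed the test against mock at any dose. With 1 nM oligomycin, 1 enzyme rose and 3 fell of 7, where 29.8% of all 13284 genes tested rose and 33.2% fell. With 10 nM oligomycin, 1 rose and 3 fell, beside 34.0% and 41.7% of all genes. With 5 mM 2-DG, 1 rose and 1 fell, beside 15.0% and 20.3% of all genes, and with 10 mM 2-DG 1 rose and 1 fell, beside 21.4% and 26.8%. With 7 enzymes, each step of 1 gene is a large share, and these counts were not far from the shares of all genes. The median log2 change over the 7 enzymes was 0.05, -0.07, -0.01 and -0.02 in these 4 comparisons, beside -0.03, -0.08, -0.02 and -0.03 over all genes tested. The 4 comparisons share the same 3 mock samples. Tests are limma's two-sided moderated test on log2(FPKM + 1), with Benjamini-Hochberg adjustment over all genes tested and a threshold of 0.05, and log2 changes carry their standard error.

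**Figure D2:**
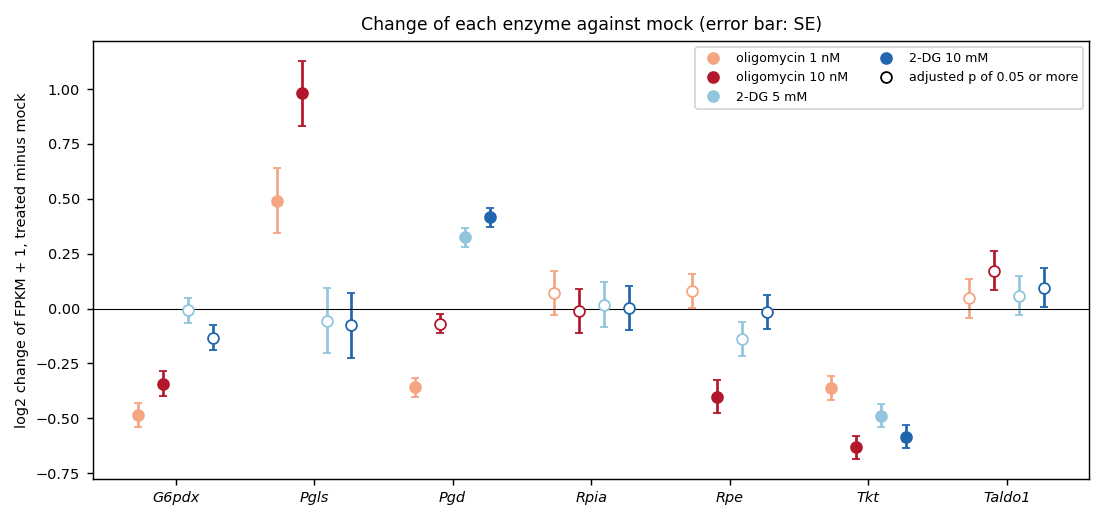
Log2 change of FPKM + 1 of each enzyme against mock in the 4 treated groups, treated minus mock, with the standard error. Filled points passed the adjusted p threshold of 0.05 and open points did not; Tkt is filled and negative in all 4, and Rpia and Taldo1 are open in all 4.

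The oxidative branch opens with G6pdx, on chromosome X (74409483 to 74429194, minus strand, GRCm38, as for the genes below), which encodes glucose 6-phosphate dehydrogenase, the committed NADPH-producing step. G6pdx was at 21.1, 20.5 and 20.2 FPKM with 1 nM oligomycin, at 21.3, 24.3 and 22.9 FPKM with 10 nM oligomycin, at 27.3, 31.0 and 28.8 FPKM with 5 mM 2-DG, at 27.6, 26.5 and 25.5 FPKM with 10 mM 2-DG, and at 28.4, 29.7 and 29.5 FPKM in mock cells. All 6 oligomycin samples lay below all mock samples, while the 5 mM 2-DG samples surrounded them. The mean with 1 nM oligomycin was 0.705 times the mock mean, and the log2 change was -0.48 ± 0.06 (limma, adjusted p = 4.8e-06). With 10 nM oligomycin it was 0.782 times the mock mean, with a log2 change of -0.34 ± 0.06 (adjusted p = 6.8e-05), which was -0.21 after quantile normalization (adjusted p = 0.00101). Neither 2-DG dose passed the test: the log2 change was -0.01 ± 0.06 at 5 mM (adjusted p = 0.921) and -0.13 ± 0.06 at 10 mM (adjusted p = 0.0658). The 10 mM change passed the test when only the 2 groups compared were fitted (adjusted p = 0.0478). G6pdx shares 418 exon bases, 13.6% of its exon length, with Ikbkg on the opposite strand. Ikbkg was at 6.18 ± 0.113 FPKM with 1 nM oligomycin, 7.88 ± 0.368 FPKM with 10 nM oligomycin and 4.57 ± 0.424 FPKM in mock cells. Whether reads were counted by strand is not given in the sources used here, so reads of the shared bases cannot be told apart. The stretch with the TGACNNNGC letters printed above belongs to this gene.

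Pgls, on chromosome 8 (71592176 to 71601092, plus strand), encodes the lactonase of the next step. Pgls was at 17.7, 16.5 and 16.9 FPKM with 1 nM oligomycin, at 19.0, 27.5 and 27.5 FPKM with 10 nM oligomycin, at 12.5, 9.08 and 12.8 FPKM with 5 mM 2-DG, at 12.4, 11.1 and 10.1 FPKM with 10 mM 2-DG, and at 9.93, 12.5 and 13.2 FPKM in mock cells. Every oligomycin sample was above every mock sample, and the 2-DG samples overlapped the mock samples. Pgls rose to 1.43 times the mock mean with 1 nM oligomycin (log2 change 0.49 ± 0.15, adjusted p = 0.00998) and to 2.07 times with 10 nM oligomycin (log2 change 0.98 ± 0.15, adjusted p = 3.1e-05). At 10 nM this was the greatest log2 change of the 7 enzymes in size, and Pgls had the greatest standard error. The change at 1 nM was 0.38 without mock replicate 1, with an adjusted p of 0.0528. With 2-DG the log2 change was -0.05 ± 0.15 at 5 mM (adjusted p = 0.807) and -0.08 ± 0.15 at 10 mM (adjusted p = 0.698).

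Samples differed within groups in how values moved with gene length, most widely in the 10 nM oligomycin group. The Spearman correlation across 13275 genes between a sample's deviation from its group and exon length was 0.524 in replicate 1, -0.456 in replicate 2 and -0.384 in replicate 3; genes are not independent replicates. It was -0.306, 0.232 and 0.156 in replicates 1 to 3 with 1 nM oligomycin and 0.360, 0.0509 and -0.352 in those of mock cells, and between -0.137 and 0.125 in the 6 samples with 2-DG. Replicate 1 of the 10 nM oligomycin group was also the lowest sample of its group for G6pdx, Pgls, Pgd, Tkt and Taldo1, but not for Rpia or Rpe. Its FPKM summed over all genes, 285204, was the lowest of the 15 samples. Without that replicate the log2 change of Pgls with 10 nM oligomycin was 1.15 ± 0.13 (limma, adjusted p = 3.1e-06), and with the length trend removed from all samples it was 1.04. No enzyme change that passed the test against mock was lost when this trend was removed. Pgls shares 776 exon bases, 20.6% of its exon length, with Fam129c on the same strand. Fam129c was at 0.859 ± 0.0738 FPKM with 1 nM oligomycin, 1.11 ± 0.318 FPKM with 10 nM oligomycin and 0.646 ± 0.175 FPKM in mock cells. Reads of these shared bases cannot be told apart by strand.

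Pgd, on chromosome 4 (149149991 to 149166771, minus strand), encodes 6-phosphogluconate dehydrogenase, the other NADPH-producing step, which yields ribulose 5-phosphate. Pgd was at 31.7, 29.5 and 30.1 FPKM with 1 nM oligomycin, at 36.6, 37.9 and 37.7 FPKM with 10 nM oligomycin, at 49.2, 50.6 and 48.7 FPKM with 5 mM 2-DG, at 53.8, 53.6 and 51.0 FPKM with 10 mM 2-DG, and at 38.1, 39.0 and 40.8 FPKM in mock cells. The 1 nM oligomycin samples were the lowest and the 2-DG samples the highest, with no overlap with mock cells on either side. Pgd rose to 1.26 times the mock mean with 5 mM 2-DG (log2 change 0.33 ± 0.04, adjusted p = 7.1e-05) and to 1.34 times with 10 mM 2-DG (log2 change 0.42 ± 0.04, adjusted p = 4.2e-06). It fell to 0.774 times the mock mean with 1 nM oligomycin (log2 change -0.36 ± 0.04, adjusted p = 7.8e-06). With 10 nM oligomycin the log2 change was -0.07 ± 0.04 (adjusted p = 0.169), and it was 0.02 after either median ratio scaling or quantile normalization. Both NADPH-producing dehydrogenases of the pathway thus had a lower level with 1 nM oligomycin, while with 2-DG Pgd passed the test and G6pdx did not; the difference between the 2 genes was not tested.

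The non-oxidative branch starts from ribulose 5-phosphate. Rpia, on chromosome 6 (70765720 to 70792232, minus strand), encodes the isomerase that makes ribose 5-phosphate. Rpia was at 1.38, 1.30 and 0.867 FPKM with 1 nM oligomycin, at 0.975, 0.953 and 1.24 FPKM with 10 nM oligomycin, at 1.01, 1.21 and 1.07 FPKM with 5 mM 2-DG, at 1.18, 1.17 and 0.873 FPKM with 10 mM 2-DG, and at 1.01, 1.15 and 1.05 FPKM in mock cells. The groups overlapped throughout, and 11 of the 15 samples reached the filter level of 1 FPKM. These levels rest on 85 to 141 reads per sample, so counting error alone is large: 100 reads have an exact 95% Poisson interval of 81.4 to 122 reads, which covers counting error only. The largest log2 change against mock was 0.07 ± 0.10, with 1 nM oligomycin (adjusted p = 0.564), and changes of this size were not detectable at this depth.

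Rpe, on chromosome 1 (66700831 to 66719805, plus strand), encodes the epimerase that turns ribulose 5-phosphate into xylulose 5-phosphate. Rpe was at 35.4, 31.3 and 30.4 FPKM with 1 nM oligomycin, at 22.7, 22.2 and 23.7 FPKM with 10 nM oligomycin, at 29.7, 25.9 and 27.3 FPKM with 5 mM 2-DG, at 27.6, 29.6 and 33.4 FPKM with 10 mM 2-DG, and at 32.4, 30.1 and 29.0 FPKM in mock cells. The 10 nM oligomycin samples were below all other 12 samples, and each of the other 3 treated groups overlapped the mock samples. Rpe fell to 0.749 times the mock mean with 10 nM oligomycin (log2 change -0.40 ± 0.08, adjusted p = 2.8e-04). The log2 change was 0.08 ± 0.08 with 1 nM oligomycin (adjusted p = 0.375), -0.14 ± 0.08 with 5 mM 2-DG (adjusted p = 0.182) and -0.02 ± 0.08 with 10 mM 2-DG (adjusted p = 0.885). Rpe shares 558 exon bases, 17.9% of its exon length, with Kansl1l on the opposite strand, which was at 0.865 ± 0.239 FPKM with 10 nM oligomycin and 0.695 ± 0.148 FPKM in mock cells.

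Tkt, on chromosome 14 (30548359 to 30574720, plus strand), encodes transketolase, the thiamine-dependent enzyme that moves carbon units between sugar phosphates. Tkt was at 48.9, 45.5 and 45.6 FPKM with 1 nM oligomycin, at 36.6, 40.8 and 38.2 FPKM with 10 nM oligomycin, at 42.6, 42.9 and 42.4 FPKM with 5 mM 2-DG, at 40.2, 40.4 and 39.0 FPKM with 10 mM 2-DG, and at 58.1, 58.2 and 64.5 FPKM in mock cells. All 12 treated samples lay below all 3 mock samples. Tkt fell to 0.774 times the mock mean with 1 nM oligomycin (log2 change -0.36 ± 0.05, adjusted p = 4.2e-05) and to 0.639 times with 10 nM oligomycin (log2 change -0.63 ± 0.05, adjusted p = 7.4e-08). It fell to 0.707 times with 5 mM 2-DG (log2 change -0.49 ± 0.05, adjusted p = 1.1e-05) and to 0.661 times with 10 mM 2-DG (log2 change -0.58 ± 0.05, adjusted p = 1.1e-06). These 4 falls passed the test under every alternative run, with log2 changes between -0.67 and -0.24.

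Taldo1, on chromosome 7 (141392199 to 141402968, plus strand), encodes transaldolase, the partner of transketolase in the exchange of carbon units. Taldo1 was at 90.4, 85.2 and 84.1 FPKM with 1 nM oligomycin, at 78.5, 106 and 101 FPKM with 10 nM oligomycin, at 85.0, 90.9 and 85.9 FPKM with 5 mM 2-DG, at 88.4, 91.4 and 88.8 FPKM with 10 mM 2-DG, and at 78.4, 84.0 and 89.1 FPKM in mock cells. Every treated group overlapped the mock range, and the widest spread was that of 10 nM oligomycin. With 10 nM oligomycin the log2 change was 0.17 ± 0.09 (limma, adjusted p = 0.0911). Without replicate 1 of that group it was 0.30 ± 0.06 (adjusted p = 2.2e-04), after median ratio scaling 0.26 (adjusted p = 0.00822), after quantile normalization 0.22 (adjusted p = 0.00142) and with the length trend removed 0.21 (adjusted p = 0.00215). The log2 change was 0.05 ± 0.09 with 1 nM oligomycin (adjusted p = 0.662) and 0.06 ± 0.09 with 5 mM 2-DG (adjusted p = 0.648). With 10 mM 2-DG it was 0.10 ± 0.09 (adjusted p = 0.396). After quantile normalization it passed the test with 1 nM oligomycin (log2 change 0.14, adjusted p = 0.032) and with 10 mM 2-DG (log2 change 0.16, adjusted p = 0.0207), and with the length trend removed with 10 mM 2-DG (log2 change 0.19, adjusted p = 0.00931).

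The oligomycin changes above came in groups where 9 (1 nM) and 10 (10 nM) of 10 stem cell markers fell and all 10 fibroblast markers rose at both doses, and their part in the enzyme changes was not tested. Of the 9 macrophage markers tested, 4 rose and 2 fell with 1 nM oligomycin and 6 rose and 2 fell with 10 nM, while 7 fell with 5 mM 2-DG and 6 with 10 mM. Fibroblast markers rose in 2 and fell in 4 of 10 with 5 mM 2-DG, and rose in 3 and fell in 3 with 10 mM. Stem cell markers rose in 3 and fell in 1 of 10 at 5 mM 2-DG, and rose in 2 and fell in 3 at 10 mM, and the part of these lists in the enzyme changes was not tested.

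The step between doses was tested directly. With 10 nM against 1 nM oligomycin, 2 enzymes were higher and 2 lower of 7, beside 18.7% of all genes higher and 27.6% lower. Pgls was higher at 10 nM, at 24.6 ± 4.89 FPKM against 17.0 ± 0.576 FPKM at 1 nM (log2 change 0.49 ± 0.15, adjusted p = 0.0149). Pgd was also higher, at 37.4 ± 0.704 FPKM against 30.4 ± 1.12 FPKM (log2 change 0.29 ± 0.04, adjusted p = 1.1e-04), so its lower level was that at 1 nM. Rpe was lower, at 22.8 ± 0.767 FPKM against 32.4 ± 2.69 FPKM (log2 change -0.48 ± 0.08, adjusted p = 1.9e-04), and Tkt was lower, at 38.5 ± 2.15 FPKM against 46.7 ± 1.94 FPKM (log2 change -0.27 ± 0.05, adjusted p = 9.1e-04). G6pdx differed by 0.14 ± 0.06 (adjusted p = 0.0529). The Pgls difference did not pass the test without 10 nM replicate 2 (0.40, adjusted p = 0.0614) or replicate 3 (0.40, adjusted p = 0.0657). Without 10 nM replicate 1, the G6pdx difference (0.19, adjusted p = 0.0118) and a Taldo1 difference (0.26, adjusted p = 0.00185) passed it, and 6 enzymes were called in place of 4. With all samples the G6pdx difference also passed it after median ratio scaling (0.20, adjusted p = 0.00717), quantile normalization (0.18, adjusted p = 0.00641), removal of the length trend (0.17, adjusted p = 0.0079) and a filter on a mean of 5 FPKM (0.14, adjusted p = 0.0467). Of the 6161 genes called between the doses, 2489 (40.4%) were higher and 3672 lower, but after quantile normalization 3347 (52.4%) were higher and 3042 lower.

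Between 10 mM and 5 mM 2-DG, none of the 7 enzymes passed limma's test, beside 3.41% of all genes higher and 2.45% lower. At an unadjusted p under 0.05 stood 1 of the 7, beside 21.2% of all genes in either direction. This was G6pdx, at 26.6 ± 1.05 FPKM with 10 mM and 29.0 ± 1.81 FPKM with 5 mM (log2 change -0.12 ± 0.06, unadjusted p = 0.0452, adjusted p = 0.222). Pgd differed by 0.09 ± 0.04 (adjusted p = 0.256) and Tkt by -0.09 ± 0.05 (adjusted p = 0.333).

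The inhibitors were set against each other at their higher doses, 10 mM 2-DG against 10 nM oligomycin, doses that have no common scale. There 3 enzymes were higher with 2-DG and 1 lower, beside 37.7% of all genes higher and 33.2% lower. Pgls was lower, at 11.2 ± 1.17 FPKM with 2-DG against 24.6 ± 4.89 FPKM with oligomycin (log2 change -1.06 ± 0.15, adjusted p = 1.8e-05). Pgd was higher, at 52.8 ± 1.56 FPKM with 2-DG against 37.4 ± 0.704 FPKM with oligomycin (log2 change 0.48 ± 0.04, adjusted p = 2.1e-07). Rpe was higher by 0.39 ± 0.08 on the log2 scale (adjusted p = 4.5e-04), and G6pdx was higher by 0.21 ± 0.06 (adjusted p = 0.004), or 0.12 after quantile normalization (adjusted p = 0.0438). Tkt, at 39.9 ± 0.790 FPKM with 2-DG and 38.5 ± 2.15 FPKM with oligomycin, differed by 0.05 ± 0.05 (adjusted p = 0.425), which does not show that the 2 treatments lowered it alike. Taldo1 differed by -0.08 ± 0.09 (adjusted p = 0.454), and by -0.21 without 10 nM oligomycin replicate 1 (adjusted p = 0.00417).

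The balance between the enzymes is given as a description, without a test. The summed level of the 7 enzymes was 235 ± 10.2 FPKM with 1 nM oligomycin, 243 ± 23.6 FPKM with 10 nM oligomycin, 249 ± 2.58 FPKM with 5 mM 2-DG, 251 ± 2.65 FPKM with 10 mM 2-DG and 256 ± 10.5 FPKM in mock cells. The oxidative enzymes made up 29.0% ± 0.424 of this sum with 1 nM oligomycin, 35.0% ± 0.590 with 10 nM oligomycin, 36.2% ± 0.313 with 5 mM 2-DG, 36.0% ± 1.26 with 10 mM 2-DG and 31.4% ± 0.450 in mock cells. The share was thus below mock in all 3 samples with 1 nM oligomycin and above it in all samples of the other treated groups. With 10 nM oligomycin, Pgls made up 10.1% of the sum against 4.63% in mock cells. G6pdx made up 9.44% against 11.4% and Pgd 15.5% against 15.4%, so Pgls carried the higher oxidative share there. With 5 mM and 10 mM 2-DG, Pgd made up 19.9% and 21.0%. The oxidative share depends on the exon lengths used and is weighted to the abundant enzymes. A balance with equal weights, the mean log2(FPKM + 1) of the 3 oxidative enzymes minus that of the 4 non-oxidative ones, was -0.07, -0.05 and 0.05 with 1 nM oligomycin, 0.41, 0.52 and 0.46 with 10 nM oligomycin, 0.29, 0.21 and 0.33 with 5 mM 2-DG, 0.33, 0.23 and 0.18 with 10 mM 2-DG, and -0.03, 0.08 and 0.10 in mock cells. On this measure the 1 nM samples overlapped the mock samples, and 10 nM oligomycin was the highest group. In that group Pgls was the only oxidative enzyme that rose, G6pdx fell, and Rpe and Tkt fell in the other branch.

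Within the oxidative branch, Pgd was 1.48 ± 0.0330 times G6pdx with 1 nM oligomycin, 1.64 ± 0.0777 times with 10 nM oligomycin, 1.71 ± 0.0836 times with 5 mM 2-DG, 1.99 ± 0.0377 times with 10 mM 2-DG and 1.35 ± 0.0341 times in mock cells. The ratio was higher than in any mock sample in all 12 treated samples. Within the non-oxidative branch, Taldo1 was 1.86 ± 0.0154 times Tkt with 1 nM oligomycin, 2.46 ± 0.273 times with 10 nM oligomycin, 2.05 ± 0.0633 times with 5 mM 2-DG, 2.25 ± 0.0402 times with 10 mM 2-DG and 1.39 ± 0.0472 times in mock cells. This ratio too was higher in all 12 treated samples than in mock cells, and its widest group was the one with oligomycin at 10 nM, where Taldo1 was spread most. In FPKM, Pgd stood above Tkt in all 6 samples with 2-DG and below it in all 3 mock samples.

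**Figure D3:**
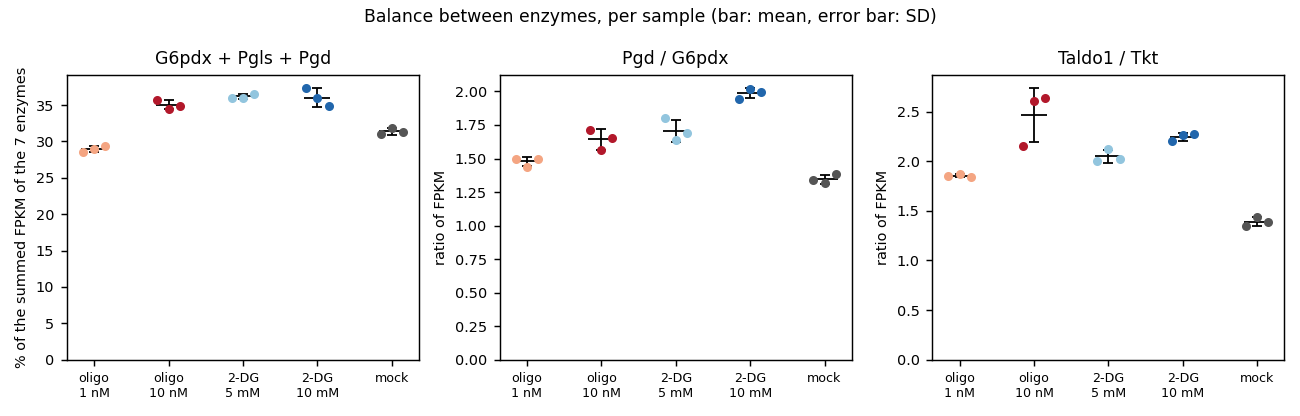
The share of G6pdx, Pgls and Pgd in the summed FPKM of the 7 enzymes, in percent, and the FPKM ratios of Pgd to G6pdx and of Taldo1 to Tkt, in each sample. Points are samples, bars the mean and error bars the SD over 3 replicates; both ratios are lowest in the mock samples, and the oxidative share is lowest with 1 nM oligomycin.

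Across the 15 samples the enzymes did not follow each other as a block. Pearson's r of log2(FPKM + 1) was 0.737 for G6pdx and Pgd, -0.659 for G6pdx and Pgls, -0.582 for Pgls and Pgd, 0.354 for G6pdx and Tkt and -0.297 for Tkt and Taldo1, as a description over samples that share 5 groups. Of deviations from group means, which the treatments do not enter, r was 0.833 for Pgd and Tkt, 0.773 for Tkt and Taldo1 and 0.747 for G6pdx and Taldo1; the genes of a library share its depth and its trend with length. The gene most like each enzyme over the 15 samples, among 7157 genes with a mean of at least 5 FPKM, was Pold2, a subunit of DNA polymerase delta, for Tkt (r = 0.981), Mfap2, a microfibril protein, for Pgls (r = 0.983), Szrd1 for G6pdx (r = 0.966) and Rbm15b for Pgd (r = 0.969). For Taldo1 it was the ribosomal protein gene Rpl32 (r = 0.931), for Rpe it was Spata5 (r = 0.895), and for Rpia, near the floor, it was Trnau1ap (r = 0.617). Tubulin genes Tubb5 (r = 0.957) and Tuba1c (r = 0.955) came next for G6pdx.

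The lists of genes around the pathway are to be read beside the shares of all genes called, which were 29.8% higher and 33.2% lower with 1 nM oligomycin, 34.0% and 41.7% with 10 nM, 15.0% and 20.3% with 5 mM 2-DG, and 21.4% and 26.8% with 10 mM 2-DG. Of the 10 other genes of the pathway on the list, 6 were tested. Tktl1 and Tktl2, relatives of transketolase, reached no more than 0.197 and 0.0291 FPKM in any sample, and G6pd2 and Rpel1 were not analysed here. With 1 nM oligomycin 4 of the 6 rose and 1 fell, with 10 nM 3 rose and 1 fell, with 5 mM 2-DG none rose and 1 fell, and with 10 mM 2-DG 1 rose and 1 fell. The median log2 change of the 6 was 0.36, 0.40, -0.13 and -0.13 in this order. H6pd, the hexose 6-phosphate dehydrogenase of the endoplasmic reticulum, was at 15.4 ± 0.563 FPKM with 10 nM oligomycin against 6.95 ± 0.241 FPKM in mock cells, a log2 change of 1.04 ± 0.07 (limma, adjusted p = 5.2e-09), where its cytosolic relative G6pdx fell. The row deposited under the name Pgm2 carries the identifier ENSMUSG00000025791. In GENCODE M21 this is Pgm1, a phosphoglucomutase, and not the gene called Pgm2 there. The gene that GENCODE calls Pgm2 (ENSMUSG00000029171) was at 16.2 ± 1.08 FPKM with 10 nM oligomycin against 12.9 ± 0.507 FPKM in mock cells (log2 change 0.30 ± 0.07, adjusted p = 8.8e-04), and was looked up after the values had been seen. With it in place of the other, 4 of 6 rose and 1 fell with 1 nM oligomycin, 3 rose and 1 fell with 10 nM, none passed the test with 5 mM 2-DG, and 1 rose with 10 mM 2-DG, with medians of 0.27, 0.17, -0.08 and -0.11. Shpk, sedoheptulokinase, rose by 0.76 ± 0.10 with 10 nM oligomycin (adjusted p = 6.7e-06), and Dera, deoxyribose-phosphate aldolase, had a log2 change of -0.30.

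Of the 5 tested synthetases of phosphoribosyl pyrophosphate and their associated proteins, 5 fell with either dose of oligomycin, 3 with 5 mM 2-DG and 4 with 10 mM 2-DG, and none rose. The list median of log2 change was -0.32 and -0.96 with 1 nM and 10 nM oligomycin and -0.23 and -0.39 with 5 mM and 10 mM 2-DG. Prps1 was at 27.0 ± 3.03 FPKM with 10 nM oligomycin against 73.0 ± 2.21 FPKM in mock cells (log2 change -1.41 ± 0.08, adjusted p = 6.9e-10); its near relative Prps1l3, which may share reads with it, changed by -1.44, and Prpsap2, an associated protein, by -0.96. Prps2 had a log2 change of -0.66 ± 0.05 with 10 mM 2-DG (adjusted p = 1.5e-07) and -0.16 ± 0.05 with 10 nM oligomycin (adjusted p = 0.0067).

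Of 11 genes of purine synthesis, 9 fell and 1 rose with either dose of oligomycin, 3 fell with 5 mM 2-DG and 8 with 10 mM 2-DG, where none rose. Ppat, the amidotransferase that opens the purine route, was at 12.2 ± 0.768 FPKM with 10 nM oligomycin against 47.2 ± 0.345 FPKM in mock cells, a log2 change of -1.87 ± 0.05 (limma, adjusted p = 3.4e-12). It was followed by Pfas at -1.46, Gart at -1.34 and Paics at -1.29, enzymes of later steps. The gene that rose was Adssl1, the muscle-type adenylosuccinate synthetase, with a log2 change of 0.95 at 1 nM and 1.19 at 10 nM. The list median was -0.57 and -1.03 with 1 nM and 10 nM oligomycin and -0.11 and -0.24 with 5 mM and 10 mM 2-DG. With 10 mM 2-DG the greatest fall on this list was in Gart, at 71.1 ± 0.406 FPKM against 116 ± 3.13 FPKM in mock cells (log2 change -0.70 ± 0.04, adjusted p = 2.7e-08). Of 10 genes of pyrimidine and deoxynucleotide synthesis, 8 and 9 fell with 1 nM and 10 nM oligomycin, 7 and 8 with 5 mM and 10 mM 2-DG, and none rose. Its medians in these 4 comparisons were -0.65, -1.08, -0.23 and -0.38. Dut, which removes dUTP, changed by -1.95 ± 0.11 with 10 nM oligomycin (adjusted p = 1.6e-09), and Rrm2, a subunit of ribonucleotide reductase, by -1.54 ± 0.06 (adjusted p = 3.9e-11). With 10 mM 2-DG these were -0.42 ± 0.11 (adjusted p = 0.00807) and -0.56 ± 0.06 (adjusted p = 6.4e-06).

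Of 11 tested genes listed around other sources of NADPH, 5 rose and 4 fell with 1 nM oligomycin, and 7 rose and 4 fell with 10 nM. With 5 mM 2-DG 5 rose and 3 fell, and with 10 mM 5 rose and 4 fell. Not every gene listed makes NADPH itself, so these counts do not describe NADPH production. The list medians were 0.12, 0.27, 0.02 and 0.07 in the order of these 4 comparisons. Aldh1l2, the mitochondrial formyltetrahydrofolate dehydrogenase, rose in all 4 treatments, to 11.5 ± 3.46 FPKM with 10 nM oligomycin and 7.69 ± 0.251 FPKM with 10 mM 2-DG, against 2.60 ± 0.418 FPKM in mock cells. Me1, cytosolic malic enzyme, was at 43.0 ± 1.38 FPKM with 10 nM oligomycin against 18.1 ± 0.262 FPKM in mock cells (log2 change 1.20 ± 0.05, adjusted p = 5.4e-11). Mthfd1, the cytosolic folate enzyme that makes NADPH, was at 36.5 ± 1.63 FPKM with 10 nM oligomycin against 121 ± 2.23 FPKM in mock cells (log2 change -1.71 ± 0.04, adjusted p = 1.1e-12).

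Of 10 genes listed for redox defence, not all of which use NADPH or glutathione, 5 rose and 3 fell with 1 nM oligomycin. With 10 nM, 5 rose and 2 fell, with 5 mM 2-DG 2 rose and 1 fell, and with 10 mM 4 rose and 2 fell. The medians in this order were 0.13, 0.21, 0.07 and 0.08. Gsr, glutathione reductase, which spends NADPH, was at 21.0 ± 2.68 FPKM with 10 nM oligomycin against 55.0 ± 2.04 FPKM in mock cells (log2 change -1.36 ± 0.07, adjusted p = 9.3e-10), and its log2 change was 0.01 ± 0.07 with 10 mM 2-DG (adjusted p = 0.928). Hmox1 and Nqo1 changed by 1.36 ± 0.05 and 1.28 ± 0.06 with 10 nM oligomycin, in the direction opposite to Gsr, and the part of NRF2 was not tested. With 10 mM 2-DG Slc7a11, the cystine transporter, rose by 1.29 ± 0.11 (adjusted p = 4.3e-07).

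At the branch point with glycolysis, 9 of 11 listed genes were tested. With 1 nM oligomycin 2 rose and 4 fell, with 10 nM 4 rose and 2 fell, with 5 mM 2-DG 2 rose and 5 fell, and with 10 mM 2-DG 2 rose and 6 fell. The medians in this order were -0.16, 0.15, -0.31 and -0.45. Tigar, a phosphatase known to steer glucose 6-phosphate to the pentose phosphate pathway, was at 6.28 ± 0.409 FPKM with 10 nM oligomycin and 20.8 ± 0.393 FPKM with 10 mM 2-DG, against 15.5 ± 0.391 FPKM in mock cells. Its log2 change was -1.18 ± 0.05 with oligomycin (adjusted p = 1.6e-10) and 0.40 ± 0.05 with 2-DG (adjusted p = 4.3e-05). Pfkl, a phosphofructokinase, was at 24.0 ± 0.654 FPKM with 10 mM 2-DG against 41.9 ± 2.62 FPKM in mock cells (log2 change -0.78 ± 0.05, adjusted p = 4.8e-08), and Tpi1, triosephosphate isomerase, fell by 0.70 on the log2 scale (adjusted p = 3.5e-07). Hk1, a hexokinase, rose by 0.90 ± 0.05 with 10 nM oligomycin (limma, adjusted p = 5.1e-10). Hk2, the other hexokinase on this list, fell. It was at 24.4 ± 2.12 FPKM with 10 nM oligomycin against 35.1 ± 1.47 FPKM in mock cells (log2 change -0.51 ± 0.06, adjusted p = 2.4e-06).

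**Figure D4:**
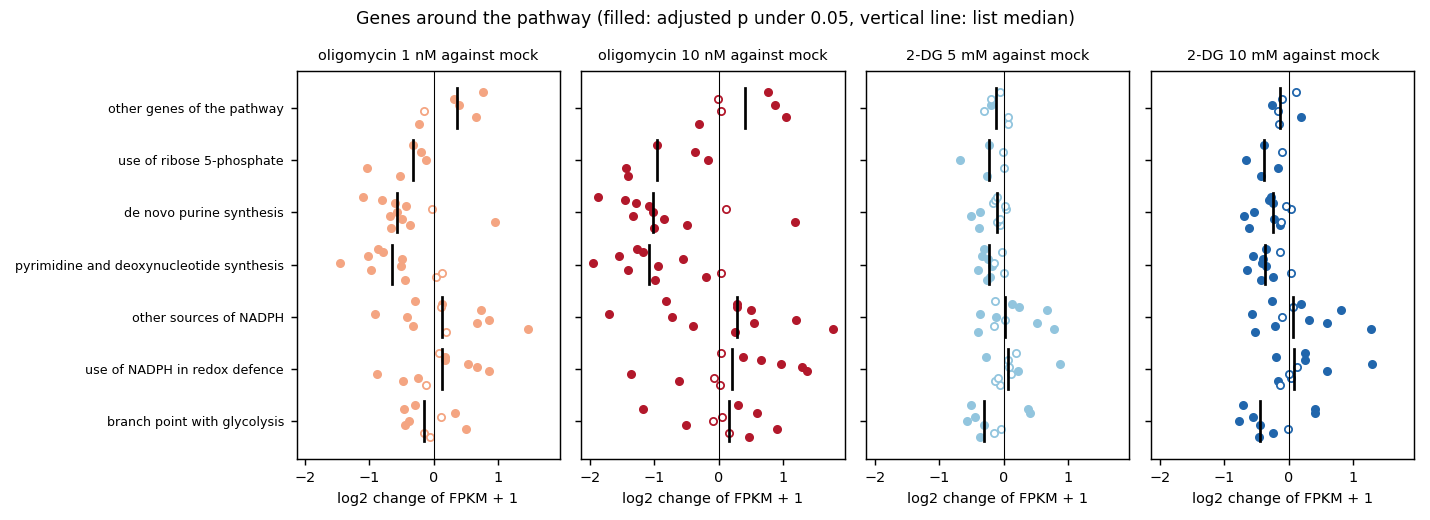
Log2 change of FPKM + 1 against mock of the tested genes of 7 lists around the pathway, treated minus mock, in the 4 treated groups on a common axis, with the row named Pgm2 in the table kept in the first list. Points are genes, filled where the adjusted p was under 0.05, and the vertical line is the list median. The ribose 5-phosphate, purine and pyrimidine lists lie mostly left of 0, and the lists around NADPH and redox defence on both sides.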

How the data were processed

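RNA of 15 samples was sequenced, and the authors deposited 1 FPKM value per gene and sample. Per the submitters' processing notes, HISAT2 2.1.0, Bowtie2 2.2.3, HTSeq 0.6.0 and the build GRCm38 were used, without a role for each; filters and strand are not given in the sources used here. The table held 32152 genes after 1 line without a gene was left out, and 26 symbols that had become dates were restored. With exon lengths of GENCODE M21, between 99.3% and 99.5% of low values (20 reads or fewer) came within 0.05 of a whole read, at depths of 17.4 to 19.2 M reads (M for mega) per sample.

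The 13284 genes that reached 1 FPKM in 3 samples or more were analysed as log2(FPKM + 1), which understates changes of low genes. One model over all 15 samples was fitted with limma 3.58.1 in R 4.3.3 (eBayes with a trend), with Benjamini-Hochberg adjustment and a threshold of 0.05, and was tested on simulated data. Python 3.11.15 with numpy 2.4.6, pandas 2.3.3, scipy 1.17.1 and matplotlib 3.10.9 served for the rest. The alternatives were pseudocounts of 0.1 and 0.01, no filter, a mean of at least 5 FPKM, median ratio scaling, quantile normalization, fits of only the compared groups, a replicate block, leaving out each replicate and, chosen after seeing the data, removing each sample's trend with exon length (lowess, span 0.3).

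The members and lists were chosen with earlier results of these data known. All 7 enzymes are named whatever their values. From each list at most 4 genes per comparison are named, among those with the largest changes past the threshold in that comparison. Their values in other comparisons are given where these are set beside them. Likeness is Pearson's r over the 15 samples, and overlapping genes were named by their coordinates.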

Additional observations from a re-analysis of the deposited data

How the results depend on the processing

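Of the enzyme changes past the threshold, 180 of 180 values kept their call under the alternatives that kept all samples, and 117 of 120 when 1 replicate was left out; none reversed. The 3 lost calls are those of Pgls given in the text. The log2 changes that reversed had not passed the test. After median ratio scaling they were 0.016 for Pgd and 0.034 for Rpia with 10 nM oligomycin, 0.032 for G6pdx with 5 mM 2-DG, 0.020 for Rpe with 10 mM 2-DG, and -0.014 for Rpia and -0.00087 for Tkt with 10 mM 2-DG against 10 nM oligomycin. After quantile normalization they were 0.017 for Pgd and 0.065 for Rpia with 10 nM oligomycin, 0.0067 for G6pdx with 5 mM 2-DG, 0.015 for Rpe with 10 mM 2-DG, 0.022 for Rpia with 10 nM against 1 nM oligomycin, and -0.018 for Tkt between the inhibitors. With the length trend removed they were 0.048 for Rpia with 10 nM oligomycin, 0.045 for G6pdx with 5 mM 2-DG, 0.041 for Rpe with 10 mM 2-DG, and -0.031 for Rpia and -0.027 for Tkt between the inhibitors. With pseudocounts of 0.1 and 0.01 Rpia with 10 mM 2-DG changed by -0.00097 and -0.0020. Rpia was under the filter on a mean of 5 FPKM and has no value there. The cause was not tested.

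With 1 replicate left out, log2 changes that reversed in some cases ranged from -0.075 to 0.026 for Rpia with 10 nM oligomycin. With 5 mM 2-DG the ranges were -0.054 to 0.032 for G6pdx, -0.17 to 0.091 for Pgls and -0.022 to 0.049 for Rpia, and with 10 mM 2-DG -0.036 to 0.075 for Rpia and -0.088 to 0.046 for Rpe. Between the 2-DG doses they were -0.17 to 0.056 for Pgls and -0.054 to 0.057 for Rpia, and between the inhibitors -0.026 to 0.085 for Rpia and -0.21 to 0.0084 for Taldo1. The genes called were 7661 to 7956 with 1 nM oligomycin, 9593 to 10095 with 10 nM, 3770 to 4028 with 5 mM 2-DG, 5458 to 5830 with 10 mM, 5333 to 6671 between the oligomycin doses, 273 to 469 between the 2-DG doses (779 with all samples) and 8922 to 9532 between the inhibitors; the enzymes called were 3 to 4, 4 to 5, 2, 2, 3 to 6, 0 and 4 to 5. A filter on a mean of at least 5 FPKM left fewer genes to test, 7713, and called 5397, 6203, 2808 and 3974 in the 4 comparisons with mock, where the wider filter called 8366, 10067, 4686 and 6401, and 5891 in place of 9411 between the inhibitors. Removing the length trend called 1185 genes between the 2-DG doses.

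No pairing by replicate number was seen: 3 of 30 same-numbered pairs had deviations correlated above 0.1 (median 0.013, highest 0.371). Of differently numbered pairs, 9 of 60 did (median 0.0034, highest 0.246). Whether same-numbered samples were handled together cannot be told from these values. The replicate block left the enzymes called at 4, 4, 2, 2, 4, 0 and 4, with 8238, 10023, 4463, 6218, 5972, 597 and 9333 genes called, and changed no enzyme's call.

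At this depth Rpia, with 85 to 141 reads, allowed no small change to be seen, and 3 replicates limit all values. Levels between genes depend on the exon length used. For G6pdx and Rpe, the part of overlapping genes depends on how strands were counted. Pgls overlaps Fam129c on the same strand, where counting by strand would not separate them. Transcripts say nothing of enzyme activity. Taldo1 and the smaller G6pdx changes depend on the scaling.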
